A study of Mus musculus with 6 samples.

Results

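RNA levels of 37 genes that act downstream of type I interferon, or that sense foreign nucleic acid, were followed in mouse hearts. The genes were chosen by name and known role from the 54352 rows of the deposited expression table, with no threshold on a measured value. Earlier results of these data were known when the list was made, so counts over it are a description and not independent support. They comprise 4 IFIT genes, 6 genes of small or secreted interferon-induced proteins, 4 genes of the ISG15 system, 4 OAS genes, 2 Mx genes, 3 nucleotide or radical enzymes, 3 genes of PARP9, PARP14 and DTX3L, 6 nucleic acid sensors and 5 other effectors. All 37 were in the table, on 13 chromosomes, and 35 had a mean high enough to be tested.

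The 6 libraries fell into 3 groups of 2, all from heart tissue. In the T2D dnMCUb group, C57BL/6 mice with type 2 diabetes (T2D) carried an adeno-associated virus (AAV) for a FLAG-tagged dominant negative murine MCUb, altered at W246R and V251E (positions along the protein). MCUb belongs to the channel that lets calcium into mitochondria. In the T2D empty vector group, mice made diabetic in the same way received an AAV with no insert. Diabetes was induced at 12 weeks of age by food with 60% of its calories from fat and by 1 dose of 75 mg/kg streptozotocin, a toxin of pancreatic beta cells, and was judged 20 weeks after the diet began. Between 16 and 18 weeks after streptozotocin the virus was given by jugular vein, and hearts were studied 4 weeks later, 5 to 6 months after induction. Control animals were kept on regular chow without any vector, so they differed from both T2D groups in diet, streptozotocin and vector together. The promoter that drives the transgene is not given in the sources used here. Whether a group's pair of libraries stems from different animals is not stated in the labels. Every p-value here therefore weighs a difference against the spread of these libraries, which may be technical.

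Type I interferons are secreted proteins that bind a receptor made of IFNAR1 and IFNAR2. The kinases JAK1 and TYK2 then activate a complex that holds STAT2 and IRF9 and binds the interferon-stimulated response element in promoters of target genes. Cytosolic sensors of RNA signal through MAVS, an adaptor on the surface of mitochondria, and switch on interferon genes through IRF3 and IRF7. The sensors and IRF7 are themselves induced by interferon, and heart muscle cells, fibroblasts, endothelial cells and macrophages can all respond to it.

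Promoter sequences near the start of the genes were searched for 2 motifs. Of the 37 genes, 27 had a 300-base window in the RefSeq table (GRCm38.p6), covering 250 bases before to 50 bases after the start. The core of the response element, searched on both strands as GAAA, then any 2 bases, then GAAA, occurred in 13 of these 27 windows (48.1%) and in 1079 of 27025 genes with a window (3.99%). The gamma-activated site, TTCNNNGAA on both strands, occurred in 7 of the 27 (25.9%) and in 2582 of the 27025 (9.55%). A match to 1 motif was counted whether or not it overlapped the other. The windows below belong to the 5 core-bearing genes with the smallest p between T2D dnMCUb and T2D empty vector, and are shown 5′ to 3′ along the gene with every match to the core in capitals. Ifi44, Oasl2, Lgals3bp, Ifit2, Herc6 and Cmpk2 were also among the 10 members with the smallest p in that comparison, but their windows held no core. On the opposite strand the core reads as TTTC, any 2 bases and TTTC. The window of Ifit3b is chr19:34607707-34608006 (plus strand), that of Ifit1 is chr19:34640639-34640938 (plus), that of Bst2 is chr8:71537423-71537722 (minus), that of Isg15 is chr4:156200769-156201068 (minus) and that of Ifit3 is chr19:34583279-34583578 (plus).
Ifit3b: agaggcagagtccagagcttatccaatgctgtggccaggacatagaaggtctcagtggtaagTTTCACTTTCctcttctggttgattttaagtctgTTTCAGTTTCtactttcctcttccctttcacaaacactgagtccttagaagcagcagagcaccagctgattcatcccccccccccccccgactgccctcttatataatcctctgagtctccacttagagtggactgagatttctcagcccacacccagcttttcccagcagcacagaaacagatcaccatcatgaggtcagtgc
Ifit1: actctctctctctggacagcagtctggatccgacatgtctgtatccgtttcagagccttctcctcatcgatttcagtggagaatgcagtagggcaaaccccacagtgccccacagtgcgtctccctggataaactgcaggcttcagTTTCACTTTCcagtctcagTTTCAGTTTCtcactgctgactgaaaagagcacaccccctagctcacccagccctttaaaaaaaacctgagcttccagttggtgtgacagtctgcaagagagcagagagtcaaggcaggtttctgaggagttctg
Bst2: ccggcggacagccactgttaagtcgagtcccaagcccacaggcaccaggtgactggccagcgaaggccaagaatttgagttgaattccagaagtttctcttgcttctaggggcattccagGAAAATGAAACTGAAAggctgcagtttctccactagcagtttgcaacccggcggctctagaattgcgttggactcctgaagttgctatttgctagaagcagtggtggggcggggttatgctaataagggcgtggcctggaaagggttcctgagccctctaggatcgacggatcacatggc
Isg15: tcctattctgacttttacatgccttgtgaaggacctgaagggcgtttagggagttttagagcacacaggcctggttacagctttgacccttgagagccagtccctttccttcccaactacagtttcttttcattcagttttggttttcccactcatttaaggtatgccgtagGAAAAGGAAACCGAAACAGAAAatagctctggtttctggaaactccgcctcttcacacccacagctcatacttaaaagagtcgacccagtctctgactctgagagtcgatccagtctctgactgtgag
Ifit3: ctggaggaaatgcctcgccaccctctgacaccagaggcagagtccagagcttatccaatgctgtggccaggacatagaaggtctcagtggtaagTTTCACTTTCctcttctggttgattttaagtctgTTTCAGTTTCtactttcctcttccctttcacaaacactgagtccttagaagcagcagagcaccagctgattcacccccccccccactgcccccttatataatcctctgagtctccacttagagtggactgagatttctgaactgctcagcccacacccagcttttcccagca
Ifit1 had its matches at 104 and 85 bases before the start and Ifit3b at 188 and 154. In Ifit3 they stood at 156 and 122 bases before the start. Bst2 carried 2 matches that share bases, at 130 and 124, and Isg15 a run of 3, at 78, 72 and 66. A match is a string of letters and not a measured binding site.

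Values throughout are regularized log (rlog) values, a log2-scale measure that draws each library towards the gene's mean, most strongly for genes with few reads. A difference of rlog is therefore smaller than the log2 fold in the authors' deposited table: its median was 0.36, 0.28 and 0.33 of that fold over members beyond a fold of 0.2 (log2), in the comparisons of T2D dnMCUb with T2D empty vector, T2D empty vector with control, and T2D dnMCUb with control. Depth is unknown for every library. The first principal component held 46.7% of the variance, with T2D dnMCUb library 1 at 10.8 and the other 5 between -4.42 and 2.69. Heart muscle was the source in all 6 libraries by its markers, since the summed level of 8 ventricular genes lay between 19.99 and 20.36 (log2 scale). Mcub, the gene of the vector's insert, stood at 5.62 and 5.47 in T2D dnMCUb, 5.48 and 5.46 in those with T2D empty vector, and 5.42 and 5.47 in control. The groups overlapped, and the difference of T2D dnMCUb from T2D empty vector came to 0.08 (SE 0.05; limma, adjusted p = 0.888). Whether reads from the vector count towards Mcub is not given in the sources used here. Since Mcub leaves the label unchecked, the libraries of that group are named below by their label.

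The 37 genes were compared first between diabetic hearts with and without dnMCUb. Of the 35 tested, 34 were higher in the libraries labelled dnMCUb than in T2D empty vector, the exception being Ddx60, against 49.5% of all 13094 genes tested. For 29 of the 35 both libraries labelled dnMCUb lay above both T2D empty vector libraries, against 15.6% of all genes, and 0 of the 35 lay wholly below, against 16.5%. The median rlog difference over the 35 was 0.12, with a range of -0.05 to 0.32, and the median over all genes was 0.00. An unadjusted p under 0.05 (limma), all in the higher direction, was reached by 22 of the 35, against 3.12% of all genes. After Benjamini-Hochberg adjustment over all genes at 0.05 limma called 0 of them and 0% of all genes. The smallest adjusted p among the members was 0.780. The authors' deposited table called 0 of the 35 as higher in this comparison, against 0.0611% of all genes tested.

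**Figure D1:**
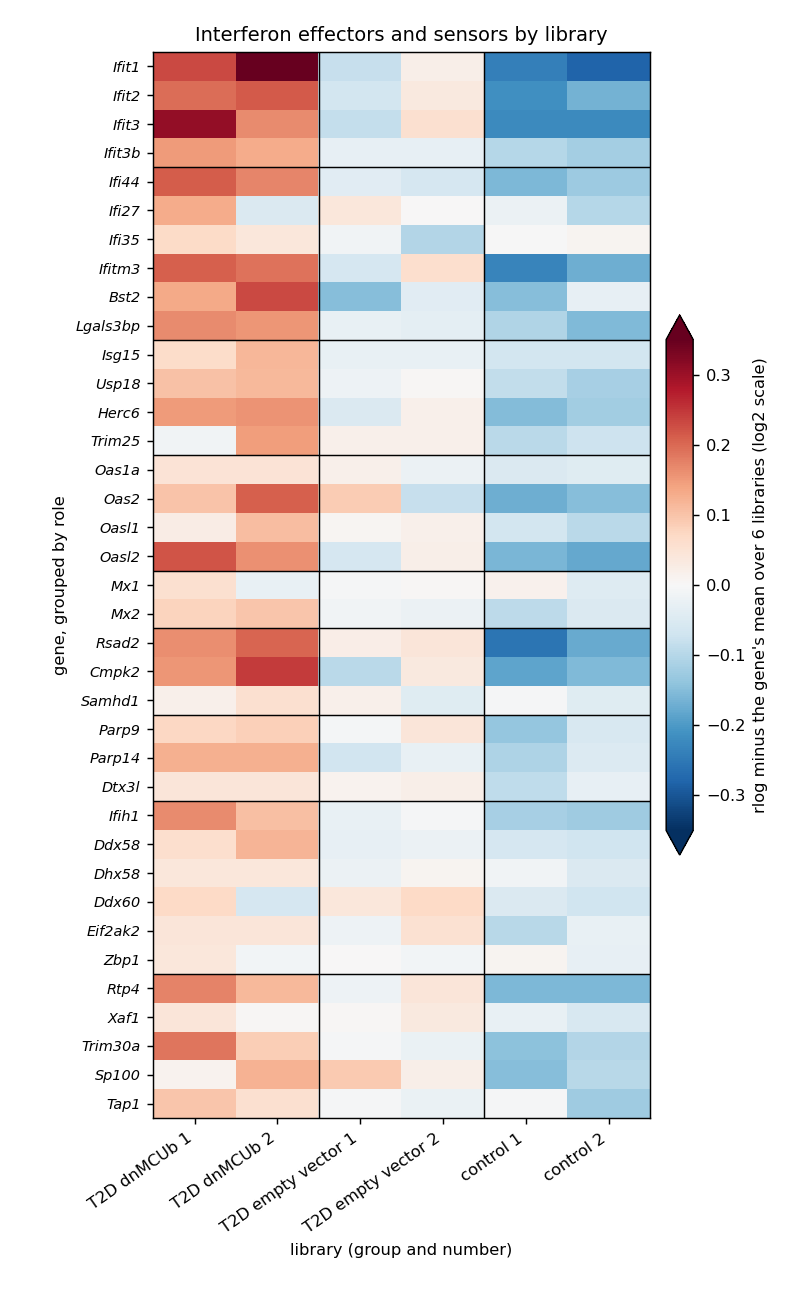
Heat map of all 37 genes, grouped by role, in each of the 6 libraries. Colour gives rlog minus the gene's mean over the 6 libraries (log2 scale, red above and blue below). The mean of the 35 tested genes was 0.12 in both libraries labelled dnMCUb, -0.02 and 0.00 in those with T2D empty vector, and -0.11 and -0.10 in control.

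Diabetic hearts with the empty vector were compared with control hearts. Of the 35 genes 33 were higher in T2D empty vector, against 48.2% of all genes, and the exceptions were Ifi35 and Bst2. Both T2D empty vector libraries lay above both controls for 29 of the 35, against 19.9% of all genes, and below both for Ifi35 alone, against 22.5%. The median difference was 0.09, ranging between -0.06 and 0.25, beside 0.00 over all genes. In limma 20 of the 35 had an unadjusted p under 0.05 and were higher, against 3.26% of all genes, while 0 passed the adjusted threshold, as did 0% of all genes. Rsad2 had the smallest adjusted p, 0.435. None of the 35 was called by the authors' deposited table as higher, where 0.267% of all genes were.

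The widest separation was between the libraries labelled dnMCUb and control. All 35 tested genes were higher in the libraries labelled dnMCUb, against 48.5% of all genes, and for 33 of them both lay above both controls, against 20.2%. The exceptions, Ifi27 and Ddx60, had overlapping libraries. The median difference was 0.20 (range 0.05 to 0.55; all genes 0.00), and 29 had an unadjusted p under 0.05, against 5.89% of all genes. Ifit1, Ifi44, Ifit3b and Rsad2 rose in limma, 4 of the 35 against 0.0611% of all genes, each with an adjusted p of 0.04999. That p lies at the threshold, and these 4 genes passed in 3 alternatives of the 13 or 14 run for each, with adjusted p between 0.00249 and 0.413. With 1 library left out, limma called 13 of the 35 without library 1 labelled dnMCUb, 17 without library 2, and 0 without either T2D empty vector or either control library. The counts of 13 and 17 each rest on 1 dnMCUb library, assumed to vary like the other groups, and over all genes the calls went up too, to 89 and 743 beside 9 with all libraries. The authors' deposited table called 12 of the 35 as higher, against 0.535% of all genes. These 3 comparisons share libraries, so they are not independent of one another.

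**Figure D2:**
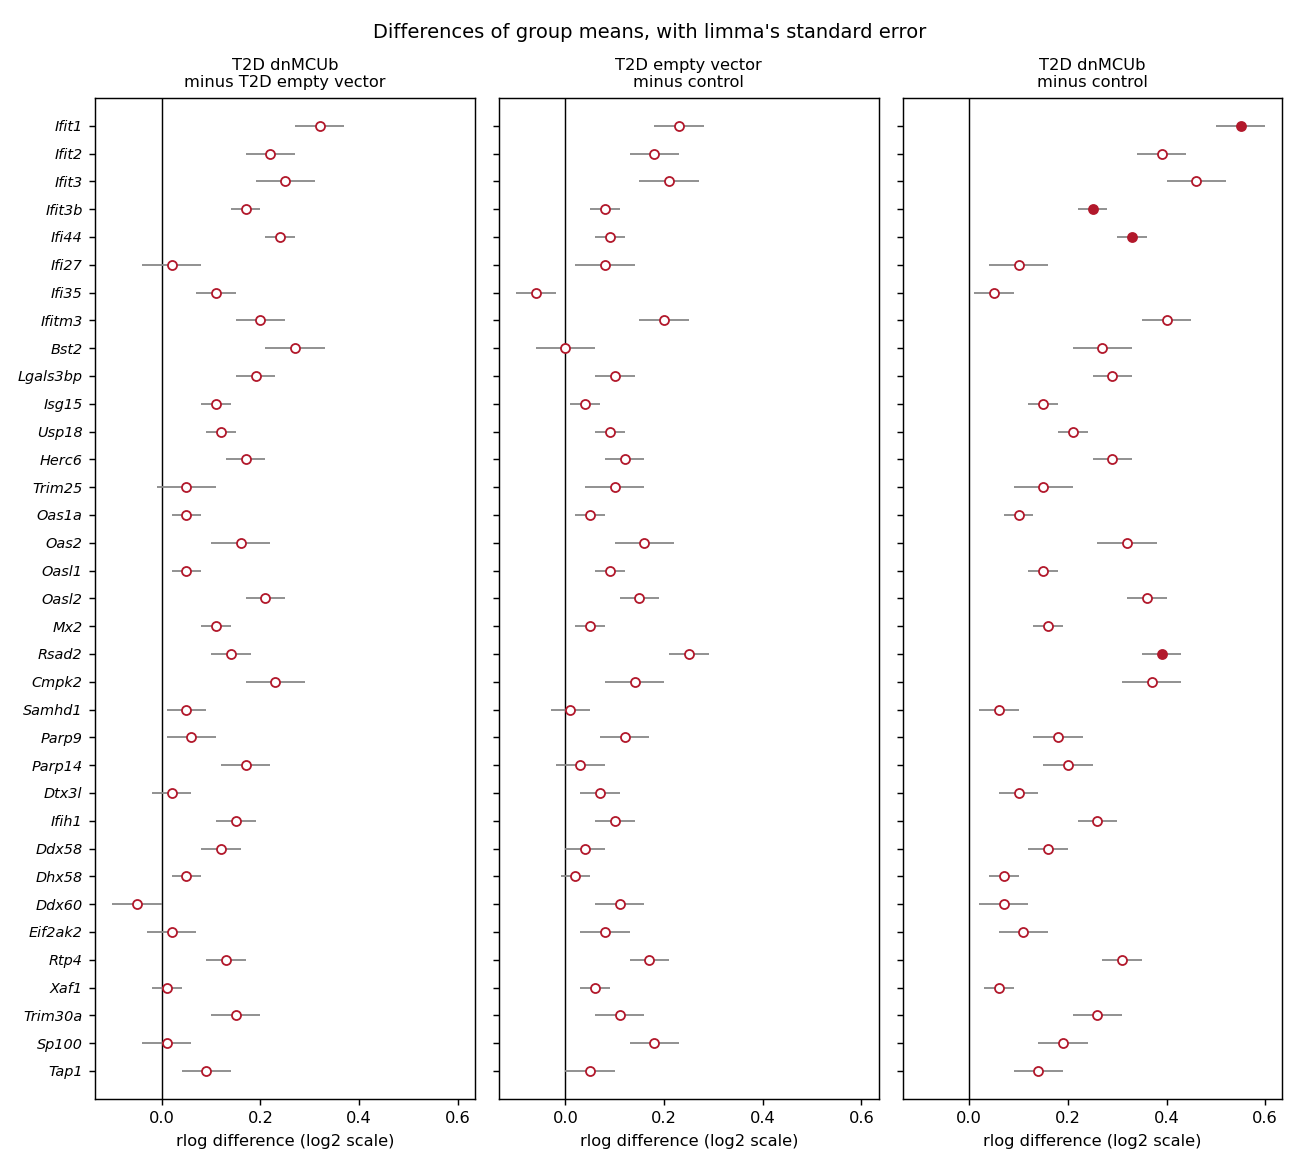
Difference of group means in rlog (log2 scale) for each of the 35 tested genes, in 3 panels, 1 per comparison, with bars of 1 standard error from limma. Filled points mark an adjusted p under 0.05. In the left panel 34 points lie above 0, in the middle panel 33, and in the right panel all 35, of which 4 are filled.

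IFIT proteins bind viral RNA and hold back its translation. Their 4 genes had separate groups in all 3 comparisons, with libraries labelled dnMCUb highest and control lowest. They also had the largest median difference of any role. It was 0.23 between labelled dnMCUb and T2D empty vector, 0.19 between T2D empty vector and control, and 0.43 between labelled dnMCUb and control. Of all genes, 15.6%, 19.9% and 20.2% had separate and higher groups in that order of comparisons. Ifit1 (ENSMUSG00000034459.8, plus strand of chr19:34640871-34650009, GRCm38) had an rlog of 8.08 and 8.20 in dnMCUb-labelled libraries, 7.77 and 7.87 in those with T2D empty vector, and 7.61 and 7.57 in control. The 3 groups did not overlap. Its difference was 0.32 between labelled dnMCUb and T2D empty vector (SE 0.05; limma, adjusted p = 0.780), 0.23 between T2D empty vector and control (adjusted p = 0.581) and 0.55 between labelled dnMCUb and control (adjusted p = 0.04999). Ifit3b (chr19:34607970-34613401, plus strand) stood at 6.41 and 6.39 with the dnMCUb label, 6.23 and 6.23 with empty vector, and 6.16 and 6.14 in control. Again no groups overlapped, and the difference between labelled dnMCUb and control was 0.25 (SE 0.03; limma, adjusted p = 0.04999).

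Ifit2 and Ifit3 showed the same order of groups and missed the threshold. Ifit2 read 9.19 and 9.21 in dnMCUb-labelled libraries, 8.93 and 9.03 in those with T2D empty vector, and 8.78 and 8.83 in control. Ifit3 read 8.09 and 7.95 in dnMCUb-labelled libraries, 7.70 and 7.84 in those with T2D empty vector, and 7.56 and 7.56 in control. Their differences between labelled dnMCUb and control were 0.39 (SE 0.05; limma, adjusted p = 0.0523) and 0.46 (SE 0.06; adjusted p = 0.0574). All 4 IFIT genes were called higher in that comparison by the authors' deposited table, against 0.535% of all genes. The log2 folds were 1.66 for Ifit1 (adjusted p = 2.89e-08), 1.60 for Ifit3b (0.00866), 1.42 for Ifit3 (1.41e-05) and 0.82 for Ifit2 (0.00152). The 4 genes lie on the plus strand of chromosome 19 with gaps of 7.11, 19.24 and 27.47 kb. Ifit3 shares 51.2% of its 50-base windows with another gene, mostly Ifit3b, Ifit3b shares 45.0% and Ifit1 7.13%, so reads of Ifit3 and Ifit3b may be divided between them and their separate values are uncertain.

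**Figure D3:**
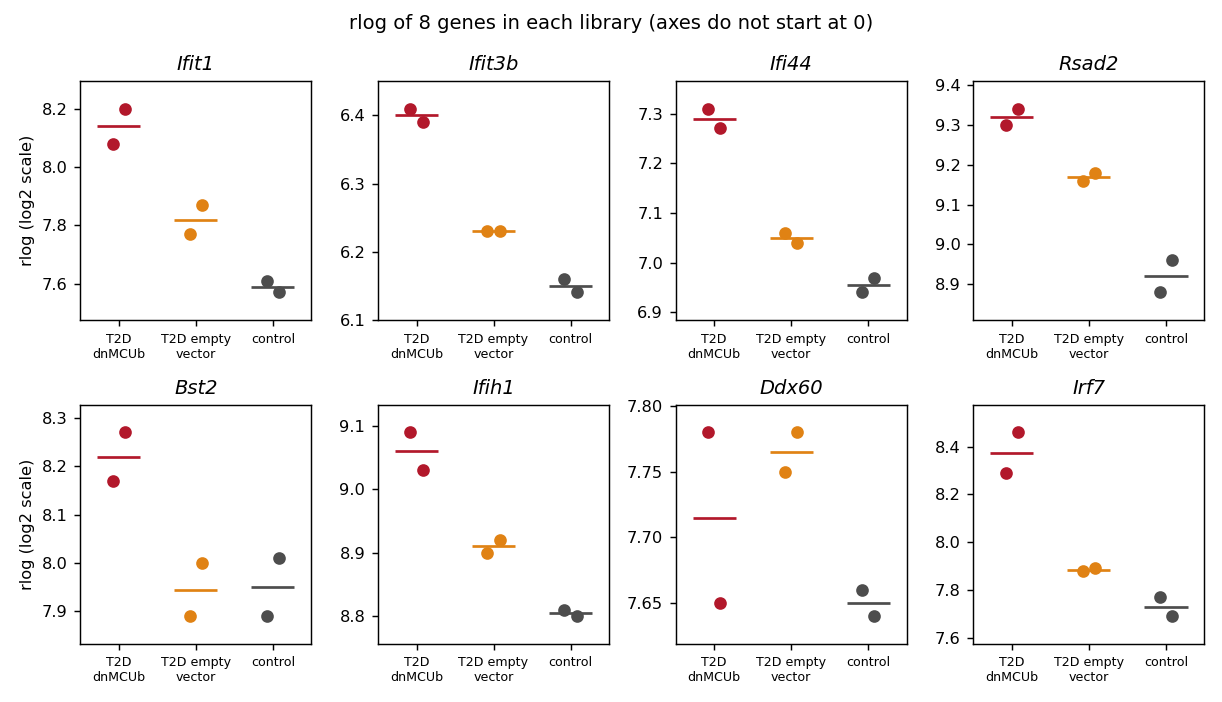
rlog of 8 genes in each library, 1 panel per gene, with 1 point per library and a line at the group mean (axes do not start at 0). Ifit1, Ifit3b, Ifi44, Rsad2, Ifih1 and Irf7 have libraries labelled dnMCUb highest and control lowest. Bst2 has overlapping T2D empty vector and control libraries, and Ddx60 has 1 library labelled dnMCUb at 7.78 and 1 at 7.65.

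Among the small or secreted proteins, Ifi44 (minus strand of chr3:151730922-151749960) separated most clearly. It stood at 7.31 and 7.27 in dnMCUb-labelled libraries, 7.06 and 7.04 in those with T2D empty vector, and 6.94 and 6.97 in control. No groups overlapped, and it ranked 2nd of all 13094 genes by p between labelled dnMCUb and T2D empty vector, with a difference of 0.24 (SE 0.03; limma, adjusted p = 0.780). Between labelled dnMCUb and control it rose by 0.33 (SE 0.03; limma, adjusted p = 0.04999), and the authors' deposited table gives a log2 fold of 1.35 (adjusted p = 0.00182).

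Ifitm3, which blocks virus entry from endosomes, read 10.04 and 10.02 in dnMCUb-labelled libraries, 9.77 and 9.89 in those with T2D empty vector, and 9.60 and 9.66 in control. Its groups were separate at each step, by 0.20 and 0.20 (SE 0.05 each). Bst2, or tetherin, which holds budding virus at the cell surface, had a different pattern and read 8.17 and 8.27 with the dnMCUb label, 7.89 and 8.0 with empty vector, and 7.89 and 8.01 in control. T2D empty vector and control overlapped for Bst2 (difference 0.00, SE 0.06), while the libraries labelled dnMCUb lay above both groups by 0.27 (SE 0.06; limma, adjusted p = 0.780 against T2D empty vector and 0.171 against control).

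Lgals3bp, a secreted glycoprotein that binds galectin-3, read 9.07 and 9.06 in dnMCUb-labelled libraries, 8.88 and 8.87 in those with T2D empty vector, and 8.80 and 8.75 in control. Its 3 groups were separate, with a difference of 0.29 between labelled dnMCUb and control (SE 0.04; limma, adjusted p = 0.0576). Ifi27 and Ifi35 had small differences. For Ifi27 the difference between labelled dnMCUb and T2D empty vector was 0.02 (SE 0.06), since its libraries labelled dnMCUb stood at 8.39 and 8.21, on either side of 8.30 and 8.26 in T2D empty vector. Ifi35, a partner of the regulator NMI, was the single tested member with T2D empty vector wholly below control: 8.10 and 8.01 against 8.11 and 8.12, a difference of -0.06 (SE 0.04; limma, adjusted p = 0.856). The authors' deposited table called Ifi44 and Ifitm3 among these 6 genes, between T2D dnMCUb and control, where it called 0.535% of all genes as higher.

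ISG15 is a ubiquitin-like protein that is attached to other proteins. Isg15 read 5.45 and 5.50 in dnMCUb-labelled libraries, 5.36 and 5.36 in those with T2D empty vector, and 5.32 and 5.32 in control. Its groups were separate by small steps, 0.11 and 0.04 (SE 0.03 each), and Isg15 is among the low genes that rlog draws in most. For it the authors' deposited table gives log2 folds of 1.01 between T2D dnMCUb and T2D empty vector and 1.57 between T2D dnMCUb and control, with adjusted p of 1 and 0.154. Herc6, the main ligase for ISG15 in mice, read 7.71 and 7.72 with the dnMCUb label, 7.51 and 7.58 with empty vector, and 7.41 and 7.44 in control. Usp18, which removes ISG15 and restrains the interferon receptor, read 6.72 and 6.73 in dnMCUb-labelled libraries, 6.60 and 6.62 in those with T2D empty vector, and 6.53 and 6.50 in control. Both genes kept their 3 groups separate. Between labelled dnMCUb and control the difference was 0.29 for Herc6 (SE 0.04; limma, adjusted p = 0.0576) and 0.21 for Usp18 (SE 0.03; adjusted p = 0.0625). Herc6 was the 1 gene of these 4 that the authors' deposited table called (log2 fold 0.94, adjusted p = 0.0272). That call was between T2D dnMCUb and control, where 0.535% of all genes were called as higher. Herc6 shares 23.8% of its windows with a gene model named Gm45193. Trim25, a ubiquitin ligase that helps to activate RIG-I, had 1 library labelled dnMCUb at 9.14, below both T2D empty vector libraries at 9.17, and 1 at 9.30.

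Active enzymes of the OAS family make oligoadenylates that activate RNase L. All 4 genes of the family followed here had separate groups at each step. Of all genes, 15.6% had separate and higher groups between labelled dnMCUb and T2D empty vector, and 19.9% between T2D empty vector and control. Oasl2 read 7.88 and 7.82 in dnMCUb-labelled libraries, 7.60 and 7.68 in those with T2D empty vector, and 7.50 and 7.48 in control. This was the widest difference of the family, 0.36 between labelled dnMCUb and control (SE 0.04; limma, adjusted p = 0.0523). Oas2 followed with 0.32 (SE 0.06; adjusted p = 0.129), although its T2D empty vector libraries stood apart at 7.52 and 7.35, and the libraries labelled dnMCUb at 7.53 and 7.64. Oasl1, which in mice limits translation of Irf7, and Oas1a differed by 0.15 and 0.10 (SE 0.03 each). Oasl2 and Oas2 were called by the authors' deposited table between T2D dnMCUb and control, against 0.535% of all genes. Each had a log2 fold of 1.12 (adjusted p = 0.00206 and 0.0101). Oas1a shares 57.6% of its windows with other genes, mostly Oas1g, and its own value is uncertain.

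The Mx GTPases trap viral nucleocapsids, and both genes had low values. Mx2, which GENCODE annotates as a polymorphic pseudogene, read 5.95 and 5.97 in dnMCUb-labelled libraries, 5.86 and 5.85 in those with T2D empty vector, and 5.78 and 5.82 in control. Its groups did not overlap, and the difference between labelled dnMCUb and control was 0.16 (SE 0.03; limma, adjusted p = 0.102). Mx1 was below the floor of a mean rlog of 5 and was not tested, at 4.74 and 4.66 with the dnMCUb label, 4.68 and 4.69 with empty vector, and 4.70 and 4.64 in control, all groups overlapping.

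Rsad2, or viperin, makes a nucleotide that stops viral polymerases, and Cmpk2 is a mitochondrial nucleotide kinase. The genes lie side by side on chromosome 12, on opposite strands with 12.75 kb between them. Rsad2 (minus strand of chr12:26442746-26456452) read 9.30 and 9.34 in dnMCUb-labelled libraries, 9.16 and 9.18 in those with T2D empty vector, and 8.88 and 8.96 in control. Its wider step was the one between T2D empty vector and control, 0.25 (SE 0.04; limma, adjusted p = 0.435), against 0.14 (SE 0.04; adjusted p = 0.784) between labelled dnMCUb and T2D empty vector. Across both steps it rose, by 0.39 between labelled dnMCUb and control (SE 0.04; limma, adjusted p = 0.04999). Cmpk2 read 8.35 and 8.44 with the dnMCUb label, 8.10 and 8.23 with empty vector, and 8.01 and 8.04 in control. Here the wider step was between labelled dnMCUb and T2D empty vector, 0.23 against 0.14 (SE 0.06 each), although a difference between the steps was not tested for either gene. Both were called by the authors' deposited table between T2D dnMCUb and control, against 0.535% of all genes. The log2 folds were 0.80 for Rsad2 (adjusted p = 0.00173) and 0.95 for Cmpk2 (adjusted p = 0.0036). Samhd1, which breaks down deoxynucleotides, was higher by 0.06 (SE 0.04; limma, adjusted p = 0.586) between labelled dnMCUb and control.

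PARP9 and DTX3L form a complex that adds ADP-ribose and ubiquitin to proteins, and PARP14 adds single ADP-ribose units. Their genes are neighbours on chromosome 16, where Dtx3l and Parp9 overlap by 0.14 kb on opposite strands. Parp14 read 10.39 and 10.39 in dnMCUb-labelled libraries, 10.20 and 10.24 in those with T2D empty vector, and 10.16 and 10.22 in control. Its T2D empty vector and control libraries overlapped, and the libraries labelled dnMCUb lay above both, with a difference of 0.17 from T2D empty vector (SE 0.05; limma, adjusted p = 0.780). For Parp9 and Dtx3l the larger step lay between T2D empty vector and control, at 0.12 (SE 0.05) and 0.07 (SE 0.04), with 0.06 (SE 0.05) and 0.02 (SE 0.04) between labelled dnMCUb and T2D empty vector. None of the 3 genes was called in any comparison by the authors' deposited table. Of all genes, it called 0.0611% as higher between T2D dnMCUb and T2D empty vector. The share was 0.267% between T2D empty vector and control, and 0.535% between T2D dnMCUb and control.

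Over the 5 tested sensors the median difference was 0.05 between labelled dnMCUb and T2D empty vector and 0.08 between T2D empty vector and control. Between labelled dnMCUb and control it was 0.11. In that order, 2, 2 and 4 of the 5 were higher at an unadjusted p under 0.05 in limma, against 3.12%, 3.26% and 5.89% of all genes. After adjustment limma called 0 of the 5 in each comparison, against 0%, 0% and 0.0611% of all genes as higher. The authors' deposited table also called 0 of the 5, against 0.0611%, 0.267% and 0.535% of all genes as higher. Ifih1, which encodes MDA5, a sensor of long double-stranded RNA, read 9.09 and 9.03 in dnMCUb-labelled libraries, 8.90 and 8.92 in those with T2D empty vector, and 8.81 and 8.80 in control. Its 3 groups were separate, with 0.26 between labelled dnMCUb and control (SE 0.04; limma, adjusted p = 0.0742). Ddx58, which encodes RIG-I, a sensor of RNA ends, read 8.98 and 9.04 with the dnMCUb label, 8.89 and 8.90 with empty vector, and 8.86 and 8.85 in control. It too was separate at each step, with 0.16 between labelled dnMCUb and control (SE 0.04; adjusted p = 0.228).

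Of the remaining 4 sensors, 3 were tested, and each had a smaller difference than Ddx58 in both comparisons of the libraries labelled dnMCUb. Dhx58, which encodes LGP2, a partner of MDA5, read 5.60 and 5.60 in dnMCUb-labelled libraries, 5.54 and 5.57 in those with T2D empty vector, and 5.55 and 5.51 in control. Ddx60, a helicase linked to RIG-I signalling, read 7.78 and 7.65 with the dnMCUb label, 7.75 and 7.78 with empty vector, and 7.66 and 7.64 in control. For Ddx60 the 2 libraries labelled dnMCUb lay at the level of a different group each, and the difference from T2D empty vector was -0.05 (SE 0.05; limma, adjusted p = 0.924). Eif2ak2, the kinase PKR that halts translation on double-stranded RNA, read 8.85 and 8.85 in dnMCUb-labelled libraries, 8.79 and 8.86 in those with T2D empty vector, and 8.71 and 8.78 in control. Libraries labelled dnMCUb and T2D empty vector overlapped for this gene. Zbp1, a sensor of left-handed nucleic acid, was untested, with values between 3.71 and 3.78 in all 6 libraries.

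Of the other effectors, Rtp4, a chaperone of receptors that also binds viral RNA, had the largest difference between labelled dnMCUb and control. It read 7.51 and 7.45 in dnMCUb-labelled libraries, 7.32 and 7.38 in those with T2D empty vector, and 7.18 and 7.18 in control. All groups were separate, and the difference between labelled dnMCUb and control was 0.31 (SE 0.04; limma, adjusted p = 0.0574). Rtp4 was the 1 gene of these 5 that the authors' deposited table called in that comparison (log2 fold 1.14, adjusted p = 0.00965). Of all genes, 0.535% were called as higher there. Trim30a, which restrains inflammatory signalling in mice, read 8.91 and 8.81 with the dnMCUb label, 8.72 and 8.70 with empty vector, and 8.58 and 8.62 in control. Sp100, a nuclear body protein, read 7.82 and 7.93 in dnMCUb-labelled libraries, 7.90 and 7.83 in those with T2D empty vector, and 7.66 and 7.71 in control. Sp100 thus separated T2D empty vector from control, by 0.18 (SE 0.05; limma, adjusted p = 0.684), but the libraries labelled dnMCUb overlapped those of T2D empty vector (0.01, SE 0.05). Sp100 shares 14.3% of its windows with other genes. Tap1, which carries peptides to MHC class I, and Xaf1, linked to cell death, differed by 0.14 (SE 0.05) and 0.06 (SE 0.03) between labelled dnMCUb and control.

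Members with and without the response element core in a 300-base window were set side by side. The 13 with the core had median differences of 0.15 between labelled dnMCUb and T2D empty vector, 0.10 between T2D empty vector and control, and 0.26 between labelled dnMCUb and control. The 14 without it had 0.10, 0.10 and 0.17 in the same order of comparisons. Ddx60 carried the core and Ifi44, Oasl2 and Cmpk2 did not, so the 2 sets overlapped, and no test was made of their difference.

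Ligands, receptors and transcription factors lie upstream of the 37 genes. Of 20 genes of interferon ligands, 18 were listed at 0 in all 6 libraries, Ifnb1 among them, and the other 2, Ifnz and Ifng, had rlog values below 0 in every library. Ifnar1 and Ifnar2, the receptor chains, differed by 0.07 (SE 0.05) and 0.04 (SE 0.04) between labelled dnMCUb and control, and over the 8 genes of receptors and kinases the median was 0.03, with 5 higher and 3 lower. Ifnlr1, the receptor chain for type III interferon, had the smallest p of that list and was lower, by -0.13 (SE 0.03; limma, adjusted p = 0.193). In the same comparison Irf9 differed by 0.05 (SE 0.03), and Stat2 by 0.18 (SE 0.04; limma, adjusted p = 0.167).

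Irf7, the factor that amplifies interferon transcription, had the largest difference of 8 transcription factors in both comparisons of the libraries labelled dnMCUb. It read 8.29 and 8.46 in dnMCUb-labelled libraries, 7.88 and 7.89 in those with T2D empty vector, and 7.77 and 7.69 in control. Its groups were separate, with differences of 0.49 between labelled dnMCUb and T2D empty vector (SE 0.06; limma, adjusted p = 0.646) and 0.15 between T2D empty vector and control (adjusted p = 0.805). It rose by 0.64 between labelled dnMCUb and control (SE 0.06; limma, adjusted p = 0.04999), a call that was kept in 3 of 13 alternatives, with adjusted p between 0.000757 and 0.413. The authors' deposited table called Irf7 in both comparisons with T2D dnMCUb. Its log2 fold was 1.27 over T2D empty vector (adjusted p = 9.16e-05) and 1.79 over control (adjusted p = 3.66e-10). Irf7 was 1 of 9 genes called over T2D empty vector, and 5 red cell genes were also among these 9. With library 1 of the dnMCUb label left out, the difference of Irf7 from T2D empty vector was 0.57 (limma, adjusted p = 0.00926), but that p rests on 1 dnMCUb library, assumed to vary like the other groups. In every other of the 13 alternatives it did not pass, with adjusted p up to 1. The next by p were Irf5 at 0.09 (SE 0.03), Stat2 at 0.08 (SE 0.04) and Irf2 at 0.07 (SE 0.04) between labelled dnMCUb and T2D empty vector.

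**Figure D4:**
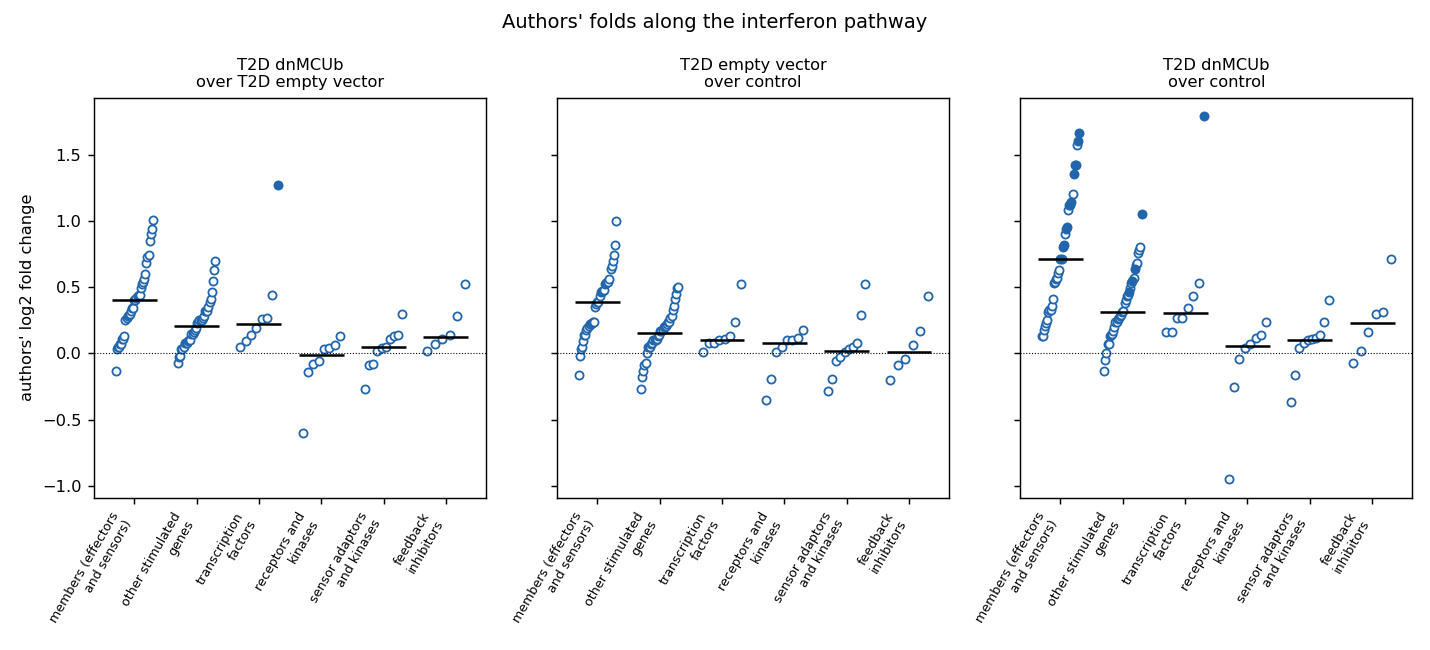
Log2 folds from the authors' deposited table for the 35 tested members and tested genes of 5 related lists, in 3 panels, 1 per comparison. Each gene is 1 open point, filled where the authors' adjusted p is under 0.05, and a bar marks the median. The members' medians are 0.40, 0.39 and 0.71 from left to right, those of receptors and kinases -0.01, 0.07 and 0.06. Irf7 is the filled transcription factor in the left and right panels.

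Adaptors carry the signal from the sensors to the interferon genes. Over 10 tested adaptors and kinases the median difference was 0.01, 0.01 and 0.03 in the comparisons of labelled dnMCUb with T2D empty vector, T2D empty vector with control, and labelled dnMCUb with control. Mavs, the mitochondrial adaptor, read 9.92 and 10.07 in dnMCUb-labelled libraries, 10.06 and 10.05 in those with T2D empty vector, and 10.19 and 10.25 in control. Both T2D groups were wholly below control, by -0.22 for labelled dnMCUb (SE 0.06; limma, adjusted p = 0.243) and -0.17 for T2D empty vector (SE 0.06; adjusted p = 0.800). Of the 6 tested feedback inhibitors, Ptpn6 had the smallest p, with 0.16 between labelled dnMCUb and control (SE 0.03; limma, adjusted p = 0.129), and Adar, which edits double-stranded RNA, had 0.13 (SE 0.04; adjusted p = 0.290).

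Interferon-stimulated genes outside the 37 were counted in the same way. Of 34 tested, 31 were higher in libraries labelled dnMCUb than in T2D empty vector, 23 of them with separate groups, and the median difference was 0.08. In T2D empty vector 29 were higher than in control, 18 with separate groups, with a median of 0.05, and between labelled dnMCUb and control 32 were higher, 25 with separate groups, with a median of 0.13. Separate and higher groups were found for 15.6%, 19.9% and 20.2% of all genes in these comparisons. limma called 0 of the 34 in each, with 13, 9 and 21 higher at an unadjusted p under 0.05, against 3.12%, 3.26% and 5.89% of all genes. The authors' deposited table called 4, all between T2D dnMCUb and control, where it called 0.535% of all genes as higher: Ifi204, a DNA-binding protein, Gbp2, a GTPase against intracellular pathogens, B2m, the light chain of MHC class I, and Rnf213, a large ubiquitin ligase, with log2 folds of 1.05, 0.64, 0.55 and 0.46. In limma B2m was higher by 0.37 (SE 0.05; adjusted p = 0.0576) and Gbp2 by 0.32 (SE 0.04; adjusted p = 0.0574) in that comparison.

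In whole heart tissue a change in the number of cells of a type cannot be told apart from a change in RNA per cell. Of 16 macrophage markers, 15 were higher in libraries labelled dnMCUb than in T2D empty vector (median difference 0.09). Of these, 8 had separate groups, against 15.6% of all genes. In T2D empty vector 13 of the markers were higher than in control (median 0.04), 7 with separate groups, against 19.9% of all genes. In libraries labelled dnMCUb all 16 were higher than in control (median 0.17), 12 with separate groups, against 20.2%. Ccr2, a chemokine receptor of monocytes, had a log2 fold over control of 0.96 for T2D dnMCUb (adjusted p = 0.0447) and of 0.96 for T2D empty vector (adjusted p = 0.00641) in the authors' deposited table, which called it in both. Their mean rlog relative to the 6-library mean was 0.15 and 0.04 in dnMCUb-labelled libraries, 0.00 and -0.04 in those with T2D empty vector, and -0.06 and -0.08 in control, and their summed level (log2 scale) ran from 13.30 to 13.47, from 13.21 to 13.29 and from 13.20 to 13.21 in that order of groups. Library 1 labelled dnMCUb thus stood above library 2 for these markers, while both had 0.12 for the interferon genes. The part of macrophages in the interferon result was not tested. Of the other white cells, 1 of 10 lymphocyte and NK cell markers and 0 of 6 neutrophil markers passed the floor. The 1 was Ptprc, which other white cells also express. Ptprc differed by 0.06, 0.13 and 0.19 (SE 0.06 each) in the order of comparisons used for macrophages. Siglech, a plasmacytoid dendritic cell gene, lay between 3.43 and 3.49. The 3 tested of 5 markers of that cell type were Cox6a2, Tcf4 and Il3ra, at a mean rlog of 14.01, 10.65 and 5.03. Their median differences were -0.02, 0.02 and 0.01, and whether they report that cell type in whole heart was not tested. Siglech and Ccr9 were below the floor. The 10 endothelial markers had median differences of 0.03, 0.0 and 0.03 in the same order, with 8, 5 and 7 higher. Between T2D dnMCUb and control, the authors' deposited table called 1 of these 10 as higher, against 0.535% of all genes. In limma Vwf had the smallest p of the 10 in that comparison and was higher by 0.35 (SE 0.08; limma, adjusted p = 0.167). Kdr came next and was lower, by -0.18 (SE 0.07; limma, adjusted p = 0.383).

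Fibroblast markers had median differences of 0.12 between labelled dnMCUb and T2D empty vector, 0.10 between T2D empty vector and control, and 0.26 between labelled dnMCUb and control, beside 0.12, 0.09 and 0.20 for the interferon genes. Of all genes, 15.6%, 19.9% and 20.2% had separate and higher groups in these comparisons. Of the 8 markers 7, 8 and 7 were higher, with separate groups for 0, 0 and 3. Their mean rlog relative to the 6-library mean was 0.36 and -0.12 in dnMCUb-labelled libraries, -0.16 and 0.15 in those with T2D empty vector, and -0.07 and -0.15 in control. Library 1 labelled dnMCUb was the highest and library 2 lay among the other groups. The part of fibroblasts in the interferon result was not tested.

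Blood and atrial tissue also varied between libraries. All 5 tested red cell genes had both libraries labelled dnMCUb above both T2D empty vector libraries, against 15.6% of all genes. The authors' deposited table called all 5 as higher there, against 0.0611% of all genes tested. The median difference of these 5 genes was 0.88. Their mean rlog relative to the 6-library mean was 0.21 and 0.69 in dnMCUb-labelled libraries, -0.45 and -0.41 in those with T2D empty vector, and 0.38 and -0.42 in control. Control library 1 thus lay between the 2 libraries labelled dnMCUb for red cell genes, and above control library 2, while the controls had -0.11 and -0.10 for the interferon genes. Atrial markers were high in library 1 labelled dnMCUb (1.07) and control library 1 (0.58) and lay between -0.50 and -0.33 in the other 4. Ventricular markers were lower in libraries labelled dnMCUb than in control for 8 of 8 genes, with a median difference of -0.20. In T2D empty vector 7 of the 8 were lower than in control (median -0.14). In libraries labelled dnMCUb 6 of the 8 were lower than in T2D empty vector (median -0.06). Groups were separate and lower for 6, 6 and 1 of the 8 in this order, against 22.7%, 22.5% and 16.5% of all genes. The part of blood, atrial tissue and ventricular muscle in the interferon result was not tested.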

How the data were processed

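RNA of 6 mouse heart libraries was sequenced from ribosomal RNA-depleted stranded total RNA, per the labels' protocols. Tools named in the submitters' processing notes are DESeq2, STAR 2.5.2a and bcl2fastq 2.20.0.422, and the builds are mm10, GRCm38 and hg38, without roles. How reads were counted per gene, and whether strand was used, is not given in the sources used here. The authors deposited 1 table of 54352 rows with rlog values on the log2 scale (-2.09 to 22.07), and with log2 fold changes, p-values and adjusted p-values of 3 comparisons. rlog values are not counts, so depth is unknown, no interval for counting error is given, and the precision of a value can be read only from the 2 libraries of its group. Of the rows, 22778 were listed at 0 throughout.

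Group differences in rlog were fitted by limma 3.58.1 (R 4.3.3), using a mean-variance trend, 1 term per group over all 6 libraries (3 residual degrees of freedom, a prior of 4.6) and Benjamini-Hochberg adjustment at 0.05, over 13094 genes with a mean rlog over all libraries of at least 5. The fit was tested on simulated data. Errors beside differences are limma's standard errors. Exact permutation of 2 libraries against 2 allows no p under 0.333 and was not used. The rule for naming genes took all 37 members, with values per library for the 10 smallest p of each comparison and for all sensors, the 4 smallest p of each related list, and fixed regulators, some of which are not reported here. Values per library of other genes were added after they were seen. Members and lists were chosen with earlier results of these data known. Alternatives were another floor or none, other scalings and variance models, a fit to 2 groups, a replicate block and each library left out. Transcript windows of 50 bases that recur in another gene were counted in GENCODE M21 (GRCm38), and promoter windows came from RefSeq (GRCm38.p6).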

Additional observations from a re-analysis of the deposited data

How the results depend on the processing

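The number of members called by limma between labelled dnMCUb and control depended on the setting. The 4 calls of the 35 became 0 with a floor of 8, median centring, no floor, no mean-variance trend, a fit to the 2 groups only, quantile normalization or the replicate block, and 13 with robust empirical Bayes. Leaving out 1 library gave between 0 and 17 calls: 13 without library 1 labelled dnMCUb, 17 without library 2, and 0 without either T2D empty vector or either control library. A fit without 1 library leaves its group with 1, assumed to vary like the other groups. In the other comparisons 0 members were called under every alternative. The medians over members held their sign and moved by less than the spread between replicates. Members wholly above the other group numbered 14, 13 and 16 of the 17 that pass a floor of 8, for labelled dnMCUb with T2D empty vector, T2D empty vector with control and labelled dnMCUb with control, the fall being that of the genes tested. Over all genes limma called 9 between labelled dnMCUb and control, 49 with robust empirical Bayes, and 0 to 743 with 1 library left out (743 without library 2 labelled dnMCUb). Between labelled dnMCUb and T2D empty vector it called 0, and 14 without library 1 labelled dnMCUb. Between T2D empty vector and control it called 0, 30 in the fit to those 2 groups only and without either library labelled dnMCUb, and 1 without control library 2. Scalings moved the median of all genes by at most 0.01.

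The replicate numbers pair nothing by the labels. With 2 libraries a group, the deviations of equally numbered libraries correlated at -0.511 between labelled dnMCUb and T2D empty vector, -0.013 between labelled dnMCUb and control, and -0.088 between T2D empty vector and control.

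Small differences changed sign when 1 library was left out, and their ranges over the libraries left out follow. Between labelled dnMCUb and T2D empty vector these were -0.0697 to 0.111 for Ifi27, -0.029 to 0.13 for Trim25, -0.111 to 0.0154 for Ddx60, -0.0111 to 0.0598 for Eif2ak2, -0.0147 to 0.0313 for Xaf1, -0.0471 to 0.0651 for Sp100 (and -0.0018 with quantile normalization) and -0.0124 to 0.0531 for Ifnar1. Between T2D empty vector and control they were -0.0613 to 0.0539 for Bst2, -0.0164 to 0.0436 for Samhd1, -0.0117 to 0.106 for Tap1, and -0.0208 to 0.0362 for Ifnar2. The cause was not tested.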
